A study of Chionodraco hamatus and Gymnodraco acuticeps and Trematomus bernacchii with 9 samples.

Results

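The skeletal muscle contractile genes described here are 53 rows of a table of 12653 rows from head kidney RNA-seq of 3 Antarctic notothenioid fishes. Each row is a UniProt entry, and its name joins a protein abbreviation to the organism of that entry, which for no member is one of the fishes sequenced (MLRS_CHICK is the skeletal regulatory myosin light chain of the chicken). A row was a member when its protein abbreviation was that of a muscle actin, a myosin heavy or light chain of striated muscle, a troponin, a tropomyosin, a calsequestrin, a parvalbumin, the skeletal ryanodine receptor, a muscle creatine kinase, or a named Z disc, thick filament or scaffold protein. The rule reads these names alone. The 53 rows carry 41 different abbreviations, and 36 of them passed the filter on low counts, as did 8662 rows of the whole table. By name alone the choice also took in MLEC_DANRE, a zebrafish malectin of the endoplasmic reticulum, and ACTC_PISOC, an actin entry of a sea star. Leaving both out left the counts of called members within 1 row.

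Head kidney was sampled from Chionodraco hamatus, an icefish and so a member of a family without haemoglobin, from Gymnodraco acuticeps and from Trematomus bernacchii, both of which have red blood cells, with 3 libraries of each species. The labels give no age, sex or treatment for any group, and no statement that the 3 libraries of a species came from 3 fish. P-values therefore measure the spread between these libraries, which may be partly technical. The head kidney is the main blood-forming organ of bony fishes and also holds interrenal (steroid-producing) and chromaffin cells.

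In striated muscle, myosin heavy chains with their regulatory and essential light chains form the thick filament, and actin with tropomyosin and the troponin complex forms the thin filament. Calcium released through the ryanodine receptor binds troponin C, which lets myosin reach actin, and the SERCA pump, calsequestrin and parvalbumin take the calcium up again. Fast, slow and heart fibres use different genes for most of these proteins, and fast white fibres of fish are rich in parvalbumin and muscle creatine kinase.

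Library totals ran from 2501922 to 12055675 counts, with C. hamatus between 2501922 and 5172770, G. acuticeps between 3052436 and 12055675 and T. bernacchii between 2600100 and 11861252. Between libraries of 1 species the Spearman correlation across tested rows was 0.796 to 0.854 between C. hamatus libraries, 0.941 to 0.973 between those of G. acuticeps and 0.827 to 0.933 between those of T. bernacchii. C. hamatus replicate 3 stood apart by its interrenal rows, which summed to 24223 CPM (read counts for every 1000000 in a library, after TMM scaling), against 13.9 to 70.4 CPM in the other 8 libraries. Chromaffin rows summed to 7360 and 2970 CPM in C. hamatus replicates 2 and 3, against 4.64 to 306 CPM in the others. The 10 red cell marker rows summed to 191 to 319 CPM in C. hamatus, 6034 to 16054 CPM in G. acuticeps and 65787 to 171595 CPM in T. bernacchii, and the 4 haemoglobin rows among them had 0 counts in every C. hamatus library. The haemoglobin rows HBA_TREBE and HBB_TREHA were also at 0 CPM in every G. acuticeps library, against 28152 to 86512 CPM in T. bernacchii. A 0 in a single row therefore need not mean that a species lacks the protein.

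Muscle rows took a small share of each library, most of it actin in G. acuticeps. Member rows held 0.156%, 0.180% and 0.194% of all counts in C. hamatus replicates 1 to 3, 2.46%, 3.04% and 3.07% in G. acuticeps replicates 1 to 3, and 0.132%, 0.579% and 0.157% in T. bernacchii. The means were 0.177% ± 0.0190 in C. hamatus libraries, 2.86% ± 0.345 in G. acuticeps libraries and 0.290% ± 0.251 in T. bernacchii (SD, n = 3 each). One row, ACTS_ORYLA (the skeletal alpha-actin entry of medaka), held 79.4% to 93.7% of the member counts of the G. acuticeps libraries. Without the 4 actin rows the shares were 0.149% ± 0.0244 in C. hamatus libraries, 0.398% ± 0.218 in G. acuticeps libraries and 0.272% ± 0.242 in T. bernacchii. As summed level, the members other than actin held 1554, 1191 and 1503 CPM in C. hamatus, 4144, 1762 and 7290 CPM in G. acuticeps, and 1162, 4825 and 1672 CPM in T. bernacchii. All 3 G. acuticeps sums lay above the C. hamatus range, while the C. hamatus and T. bernacchii sums overlapped. Fewer muscle cells in the dissected tissue and less of these RNAs per cell cannot be told apart in such bulk libraries.

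**Figure D1:**
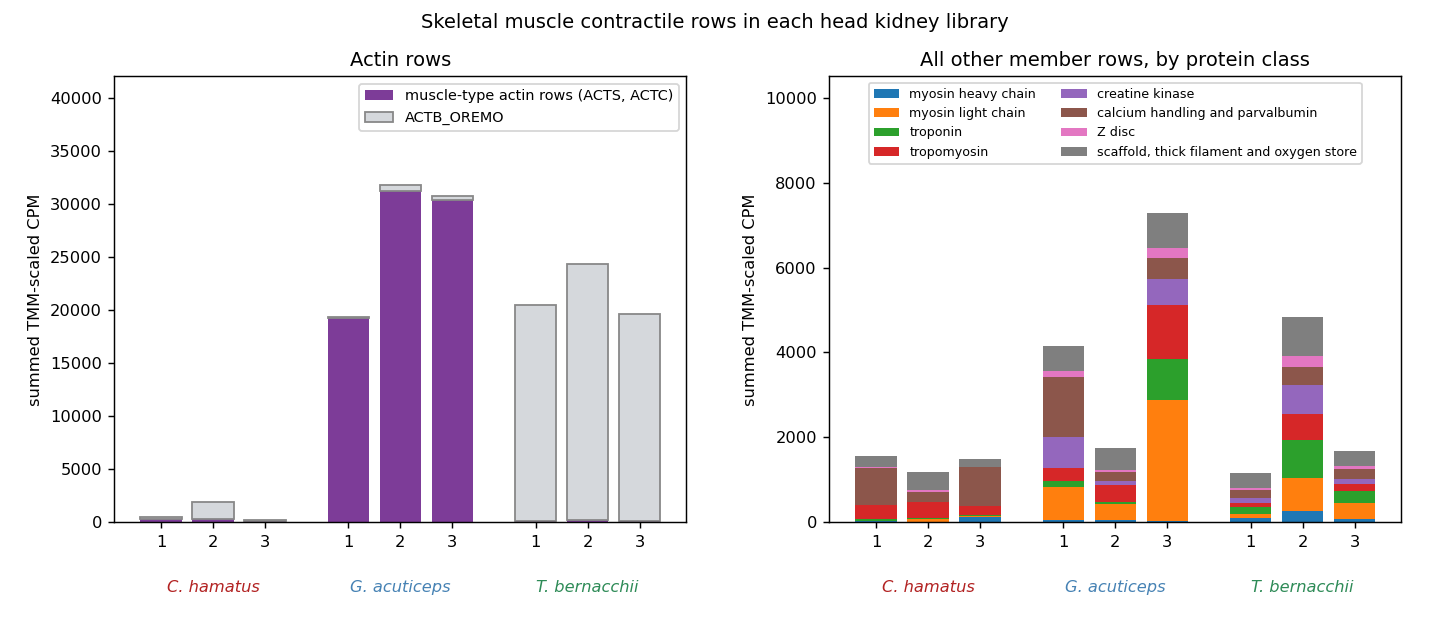
Summed TMM-scaled CPM (vertical axes) in each of the 9 libraries, with actin rows on the left (muscle-type rows ACTS and ACTC, and the cytoplasmic actin row ACTB_OREMO, which is no member) and all other member rows on the right, stacked by protein class. The muscle actin rows reach 19225 to 31185 CPM in G. acuticeps and stay under 336 CPM elsewhere. The stacked total of the other classes is highest in G. acuticeps replicate 3 (7290 CPM) and T. bernacchii replicate 2 (4825 CPM), which does not hold for each class.

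Row by row, more member rows were lower in the icefish than higher in it. In C. hamatus against G. acuticeps, 3 of 36 tested members were higher and 20 were lower (edgeR quasi-likelihood test, Benjamini-Hochberg adjusted p under 0.05), which is 8.33% and 55.6%, against 25.1% and 16.8% of all tested rows. In C. hamatus against T. bernacchii, 4 were higher and 15 were lower, or 11.1% and 41.7%, against 17.6% and 14.8% of all tested rows. The median log2 difference of the 36 members was -4.69 and -3.40 in these comparisons, against 0.15 and 0.02 over all tested rows. Both comparisons use the same 3 C. hamatus libraries. Some rows counted as lower in both, MYPC2_HUMAN, TELT_BOVIN and MYOZ1_BOVIN among them, had few or no icefish counts. They passed the filter on low counts through the other species alone. In G. acuticeps against T. bernacchii, 5 members were higher and 5 were lower, or 13.9% each way against 13.1% and 18.3% of all tested rows, a share near the background that is no result about these rows. Their median log2 difference was 0.38, against -0.12 over all tested rows.

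These counts moved with single libraries, and 37 to 46 members were tested in the fits that left libraries out, where the filter was applied anew. Without G. acuticeps replicate 3, 13 members were lower in the icefish than in G. acuticeps, and without G. acuticeps replicate 3 and T. bernacchii replicate 2 together 5 were higher and 14 lower, with 5 higher and 11 lower against T. bernacchii. Without C. hamatus replicates 2 and 3 together, the libraries rich in adrenal transcripts, 2 were higher and 11 lower against G. acuticeps, and 2 higher and 6 lower against T. bernacchii. In that fit the lone C. hamatus library is assumed to vary like the other species. Without C. hamatus replicate 2, or T. bernacchii replicate 1 or 3, 2 members were higher against T. bernacchii. When rows of the same abbreviation were summed over organisms in the whole table before fitting, 3 were higher and 17 lower against G. acuticeps, and 2 higher and 12 lower against T. bernacchii. Reads that fall on the entry of another organism but the same protein are counted together there. Shares of all tested rows are not given here for the refits of this paragraph. Their counts therefore cannot be set against a background. The red cell rows, 9 of which were tested, moved in the same direction as the members, with 7 lower against G. acuticeps and 8 lower against T. bernacchii (77.8% and 88.9%, against 16.8% and 14.8% of all tested rows). Their part in the muscle result was not tested.

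Among the thick filament proteins, the regulatory light chain of fast skeletal myosin was low in the icefish libraries. MLRS_CHICK held 12.3, 52.1 and 9.53 CPM in C. hamatus, 752, 293 and 2080 CPM in G. acuticeps, and 94.2, 775 and 363 CPM in T. bernacchii. No C. hamatus library reached the range of either other species, while G. acuticeps and T. bernacchii overlapped. The log2 difference of C. hamatus was -5.41 ± 1.11 (SE) from G. acuticeps (edgeR adjusted p = 0.00334) and -4.07 ± 1.04 from T. bernacchii (edgeR adjusted p = 0.0129). Leaving out 1 library at a time gave -6.58 (without C. hamatus replicate 2) to -4.46 (without G. acuticeps replicate 3) in the first comparison, and -5.23 (without C. hamatus replicate 2) to -3.24 (without T. bernacchii replicate 2) in the second. With C. hamatus replicate 1 as its only icefish library the second call was lost (edgeR adjusted p = 0.0694). The essential light chain row MLE1_LIZRA, an entry of a mullet, held 0, 1.35 and 0.397 CPM in C. hamatus, 27.4, 81.7 and 757 CPM in G. acuticeps, and 0.748, 1.68 and 8.35 CPM in T. bernacchii. Here G. acuticeps alone stood high, and C. hamatus and T. bernacchii overlapped. MLE1_LIZRA was lower in the icefish than in G. acuticeps by a log2 difference of -9.06 ± 1.72 (edgeR adjusted p = 0.00229), or -6.63 without G. acuticeps replicate 3. Its difference of -2.83 ± 1.52 from T. bernacchii did not pass the test (edgeR adjusted p = 0.181).

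The myosin heavy chain rows, which encode the motor itself, gave little that passed the test against G. acuticeps (0 of 3 tested). MYSS_CYPCA, the fast skeletal heavy chain entry of carp, held 24.8, 7.78 and 11.9 CPM in C. hamatus, 32.7, 39.7 and 20.1 CPM in G. acuticeps, and 32.2, 25.6 and 19.8 CPM in T. bernacchii. The 3 ranges overlapped, and the log2 differences of C. hamatus were -1.05 ± 0.55 from G. acuticeps (edgeR adjusted p = 0.148) and -0.79 ± 0.55 from T. bernacchii (edgeR adjusted p = 0.296). The slow and cardiac beta heavy chain MYH7 had a human and a pig row. MYH7_HUMAN held 0.464, 2.71 and 0 CPM in C. hamatus, 1.87, 1.01 and 12.1 CPM in G. acuticeps, and 56.1, 158 and 40.6 CPM in T. bernacchii, so that T. bernacchii stood above both other species in every library. It was lower in C. hamatus than in T. bernacchii by a log2 difference of -6.45 ± 1.38 (edgeR adjusted p = 0.00546; -8.45 without C. hamatus replicate 2 to -5.65 without T. bernacchii replicate 2). In MYH7_PIG a single icefish library was high, with 3.94, 5.42 and 118 CPM in C. hamatus, 4.98, 2.76 and 3.56 CPM in G. acuticeps, and 5.98, 78.1 and 7.08 CPM in T. bernacchii, and none of its comparisons passed the test. Summed over both MYH7 rows, C. hamatus differed from T. bernacchii by a log2 difference of -1.41 ± 1.11 (edgeR adjusted p = 0.371).

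Of the myosin binding proteins C, which brace the thick filament and tune its motors, the fast and heart rows went opposite ways against G. acuticeps. MYPC2_HUMAN, the fast form, had 0 counts in all 3 C. hamatus libraries, while it held 19.0, 6.78 and 38.3 CPM in G. acuticeps, and 13.5, 108 and 14.8 CPM in T. bernacchii. With 3 counts per library taken as the floor, it was at least 27.8-fold lower in the icefish than in G. acuticeps (edgeR adjusted p = 0.00315) and at least 59.2-fold below T. bernacchii (edgeR adjusted p = 0.00262). MYPC3_CHICK, the heart form, went the other way against G. acuticeps, with 249, 410 and 181 CPM in C. hamatus, 75.7, 62.3 and 71.5 CPM in G. acuticeps, and 302, 421 and 219 CPM in T. bernacchii. Every C. hamatus library lay above the G. acuticeps range and the C. hamatus and T. bernacchii ranges overlapped. MYPC3_CHICK was higher in the icefish than in G. acuticeps by a log2 difference of 2.0 ± 0.43 (edgeR adjusted p = 0.00449; 1.61 without C. hamatus replicate 2 to 2.22 without C. hamatus replicate 3), and its difference from T. bernacchii was -0.17 ± 0.42 (edgeR adjusted p = 0.794). MYPC1_HUMAN, the slow form, was counted in 1 C. hamatus library (5.56 CPM in replicate 3) and 1 G. acuticeps library (2.95 CPM in replicate 3), against 1.99, 152 and 9.80 CPM in T. bernacchii, and passed no test.

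**Figure D2:**
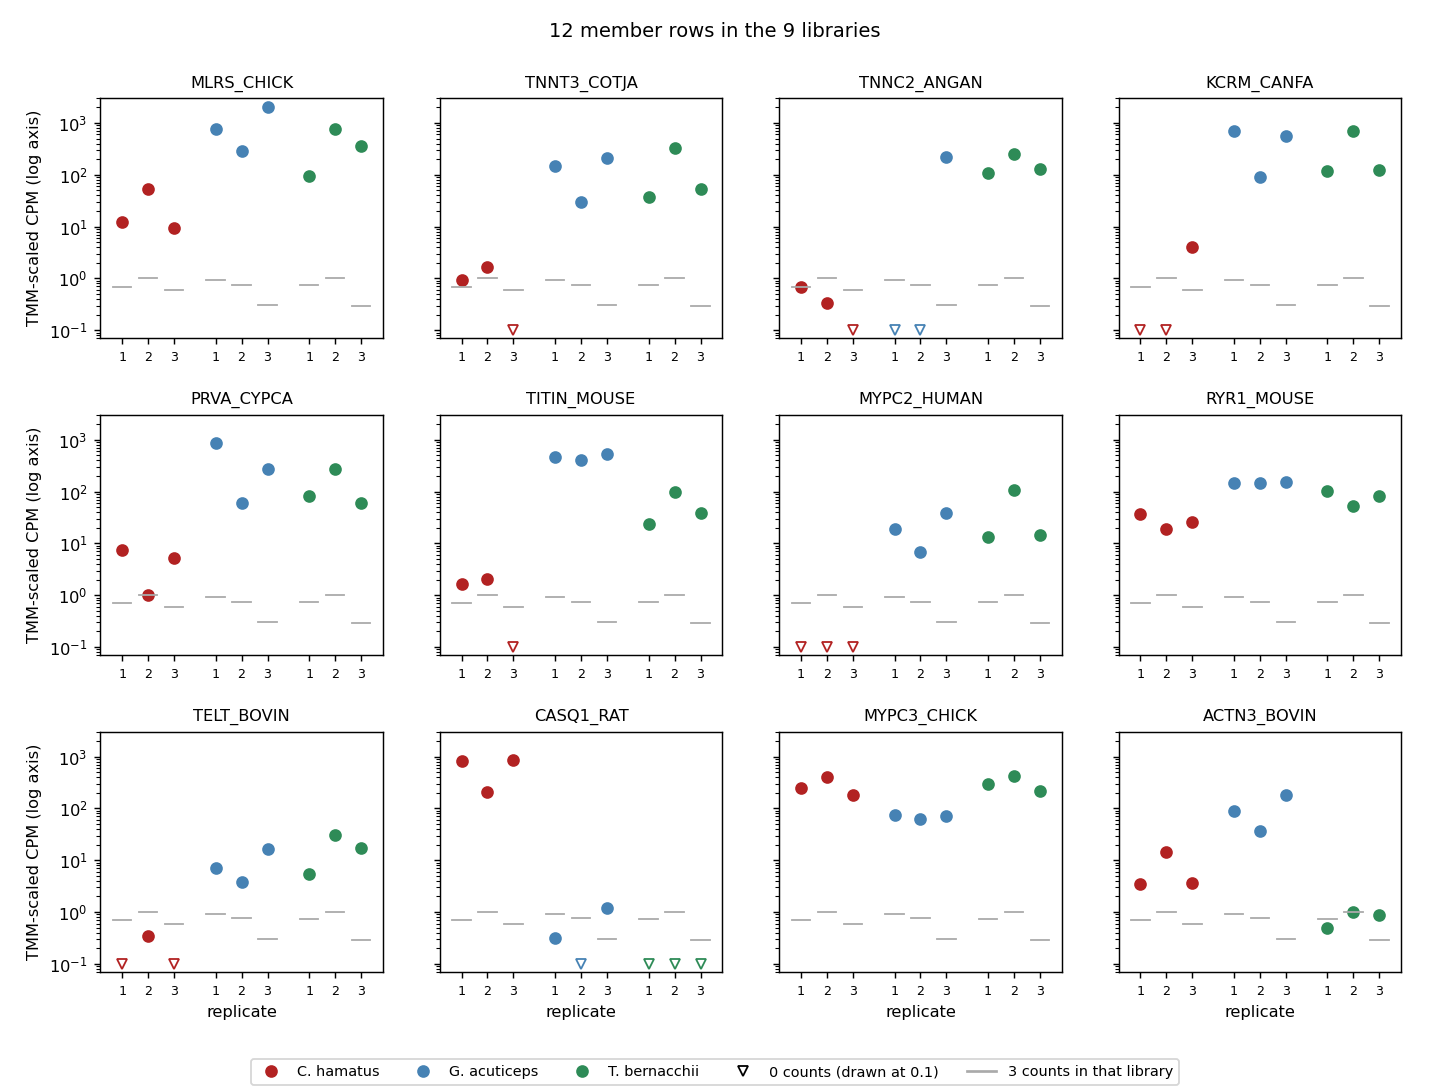
TMM-scaled CPM (vertical axis, log scale) of 12 member rows, with C. hamatus libraries on the left of each panel, then those of G. acuticeps and those of T. bernacchii. Each point is 1 library, an open triangle marks a library with 0 counts, and a short line marks the level of 3 counts in that library. KCRM_CANFA and TITIN_MOUSE sit at or under 3.97 CPM in C. hamatus and above 20 CPM in every other library, CASQ1_RAT shows the opposite, and MYPC3_CHICK is high in both C. hamatus and T. bernacchii.

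Troponin rows, the calcium switch of the thin filament, were 5 of 9 lower and 1 of 9 higher in the icefish than in G. acuticeps, and 3 of 9 lower and 0 higher than in T. bernacchii. These are 55.6% and 11.1%, against 16.8% and 25.1% of all tested rows, and then 33.3% and 0%, against 14.8% and 17.6%. The most evenly separated was TNNT3_COTJA, the fast skeletal troponin T of the quail, which anchors the complex to tropomyosin. It held 0.928, 1.69 and 0 CPM in C. hamatus, 149.7, 29.4 and 212 CPM in G. acuticeps, and 37.6, 324 and 52.8 CPM in T. bernacchii. C. hamatus lay below every library of the other species. The log2 difference of TNNT3_COTJA was -7.32 ± 1.36 from G. acuticeps (edgeR adjusted p = 0.00208; -8.15 without C. hamatus replicate 2 to -6.66 without C. hamatus replicate 3) and -7.39 ± 1.36 from T. bernacchii (edgeR adjusted p = 0.00261; -8.21 without C. hamatus replicate 2 to -5.81 without T. bernacchii replicate 2). A second TNNT3 row, TNNT3_CHICK, held 0, 2.71 and 8.34 CPM in C. hamatus, 0, 0 and 272 CPM in G. acuticeps, and 2.49, 49.5 and 29.9 CPM in T. bernacchii and passed no test. Summed, the TNNT3 rows were lower in C. hamatus by -5.59 ± 1.28 on the log2 scale against G. acuticeps (edgeR adjusted p = 0.00618) and by -5.17 ± 1.26 against T. bernacchii (edgeR adjusted p = 0.0105).

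Several troponin calls rested on G. acuticeps replicate 3. TNNC2_ANGAN, the fast calcium-binding troponin C entry of the eel, held 0.696, 0.338 and 0 CPM in C. hamatus, 0, 0 and 225 CPM in G. acuticeps, and 108, 255 and 128 CPM in T. bernacchii. G. acuticeps had this row in 1 library only, while all 3 T. bernacchii libraries had it. It was lower in the icefish than in G. acuticeps by a log2 difference of -7.73 ± 2.50 (edgeR adjusted p = 0.0300), but without G. acuticeps replicate 3 the difference was 3.74 (edgeR adjusted p = 0.181), and the call was also lost without any 1 C. hamatus library (edgeR adjusted p = 0.0621 to 0.0822). Against T. bernacchii it was -8.85 ± 2.57 (edgeR adjusted p = 0.0235), with the call lost without any 1 C. hamatus library (edgeR adjusted p = 0.0573 to 0.0688) and the groups apart in every library. TNNC1_MOUSE, the slow and cardiac troponin C, had 1.16, 1.69 and 0.397 CPM in C. hamatus, 0.311, 3.02 and 129 CPM in G. acuticeps, and 6.48, 122 and 14.1 CPM in T. bernacchii. Its log2 difference of -5.39 ± 1.94 from G. acuticeps (edgeR adjusted p = 0.0457) was -0.71 without G. acuticeps replicate 3 (edgeR adjusted p = 0.733), and the call was lost without any 1 C. hamatus library too (edgeR adjusted p = 0.0962 to 0.115). Its difference of -5.47 ± 1.94 from T. bernacchii did not pass the test (edgeR adjusted p = 0.0529).

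Both tested troponin I rows and 1 heart troponin T row held 1 or 2 counts in the icefish. TNNI2_RABIT, fast troponin I, which blocks actin at rest, had 1 count over the 3 C. hamatus libraries, against 358 counts in G. acuticeps and 299 counts in T. bernacchii. Most came from replicate 3, with 0, 16 and 342 counts in the G. acuticeps libraries and 2, 2 and 295 in those of T. bernacchii. Pooled over the 3 libraries of each species and scaled to library size, its counts were 259-fold lower in the icefish than in G. acuticeps (exact 95% counting interval 46.1 to 10248, edgeR adjusted p = 0.0455). Mean CPM was 0.113 in C. hamatus and 12.9 in G. acuticeps. All folds with such an interval are pooled in this way, and the interval leaves out the spread between libraries. The call was lost without G. acuticeps replicate 2 or 3 or any 1 C. hamatus library (edgeR adjusted p = 0.0568 to 0.205). TNNT2_MOUSE, a heart troponin T, had 2 counts in C. hamatus, 536 counts in G. acuticeps (0, 25 and 511 by library) and 58 counts in T. bernacchii (1, 15 and 42). It was 194-fold lower in the icefish than in G. acuticeps (exact 95% counting interval 53.4 to 1600; edgeR adjusted p = 0.0299), a call lost without G. acuticeps replicate 3 (edgeR adjusted p = 0.174) or C. hamatus replicate 1 or 3 (0.0757 and 0.0768). Summed over the TNNT2 rows, C. hamatus differed from G. acuticeps by a log2 difference of -0.11 ± 0.98 (edgeR adjusted p = 0.952). TNNI3_HORSE, heart troponin I, had 2 counts in C. hamatus, 253 counts in G. acuticeps (0, 32 and 221 by library) and 320 counts in T. bernacchii (0, 140 and 180). Its C. hamatus range overlapped those of both other species. It passed the test against T. bernacchii only, where it was 114-fold lower in C. hamatus (exact 95% counting interval 31.3 to 944; edgeR adjusted p = 0.0395) and kept the call in 2 of the 9 fits with 1 library left out (edgeR adjusted p up to 0.102 in the others).

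The remaining tested troponin T rows, TNNT1_RAT and TNNT2_BOVIN, were not lower in the icefish than in G. acuticeps. TNNT2_MOUSE, the other tested TNNT2 row, was lower there, and the TNNT2 rows summed were not called (both given above). TNNT1_RAT, the slow skeletal form, held 2.09, 12.5 and 10.7 CPM in C. hamatus, 0 counts in all 3 G. acuticeps libraries, and 0.499, 2.69 and 0.291 CPM in T. bernacchii. It was at least 12.7-fold higher in the icefish than in G. acuticeps (edgeR adjusted p = 0.00497), and the C. hamatus and T. bernacchii ranges overlapped (edgeR adjusted p = 0.0867). The call against G. acuticeps held with each library left out in turn, but not in every alternative fit. TNNT2_BOVIN, a heart form, held 32.7, 15.6 and 23.03 CPM in C. hamatus, 2.80, 3.77 and 10.3 CPM in G. acuticeps, and 9.72, 72.4 and 20.6 CPM in T. bernacchii. C. hamatus lay above G. acuticeps in every library, with a log2 difference of 2.05 ± 0.81 that did not pass the test (edgeR adjusted p = 0.0630).

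Of the tropomyosins, which lie along actin and are moved by troponin, neither of the 2 tested rows was called lower in the icefish. TPM1_COTJA held 93.7, 183 and 64.7 CPM in C. hamatus, 217, 261 and 1092 CPM in G. acuticeps, and 74.8, 511 and 85.3 CPM in T. bernacchii. The C. hamatus range lay below that of G. acuticeps and overlapped that of T. bernacchii, with log2 differences of -2.20 ± 0.89 (edgeR adjusted p = 0.0698) and -0.97 ± 0.86 (edgeR adjusted p = 0.426). TPM1_XENLA held 238, 181 and 127 CPM in C. hamatus, 91.2, 139 and 170.1 CPM in G. acuticeps, and 11.5, 95.6 and 21.5 CPM in T. bernacchii. It was higher in C. hamatus than in T. bernacchii by a log2 difference of 2.09 ± 0.71 (edgeR adjusted p = 0.0445), a call kept only without C. hamatus replicate 3 or T. bernacchii replicate 2 among the 9 fits with 1 library left out (1.63 without T. bernacchii replicate 1 to 3.44 without T. bernacchii replicate 2). TPM1 also serves smooth muscle and non-muscle cells, and summed over its rows it differed from G. acuticeps by -1.14 ± 0.80 (edgeR adjusted p = 0.278) and from T. bernacchii by 0.14 ± 0.79 (edgeR adjusted p = 0.919).

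Muscle creatine kinase, which rebuilds ATP at the filaments from phosphocreatine, was among the rows with the widest gap. KCRM_CANFA held 0, 0 and 3.97 CPM in C. hamatus, 716, 92.7 and 564 CPM in G. acuticeps, and 117, 701 and 124 CPM in T. bernacchii. All 6 libraries of the other species lay over 90 CPM, and 2 icefish libraries had no count. The log2 difference of KCRM_CANFA was -8.29 ± 1.58 from G. acuticeps (edgeR adjusted p = 0.00239) and -7.74 ± 1.55 from T. bernacchii (edgeR adjusted p = 0.00407), with the least extreme values -7.78 with C. hamatus replicate 1 left out and -6.37 with T. bernacchii replicate 2 left out. Without C. hamatus replicate 3 the remaining icefish libraries were at 0 and the row was still called in both comparisons. The mitochondrial form KCRS_CHICK and the second cytosolic row KCRM_HUMAN did not pass the filter, and had 0 and 1 counts in C. hamatus, 378 and 239 counts in G. acuticeps (352 and 239 of them in replicate 3), and 25 and 21 in T. bernacchii.

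Parvalbumins, soluble calcium buffers that speed relaxation of fast fibres, were lower in the icefish in both rows tested. PRVA_CYPCA held 7.42, 1.02 and 5.16 CPM in C. hamatus, 851, 61.6 and 278 CPM in G. acuticeps, and 83.8, 271 and 61.4 CPM in T. bernacchii. PRVB_SCOJP held 0, 0.677 and 5.16 CPM in C. hamatus, 429, 8.79 and 56.1 CPM in G. acuticeps, and 18.2, 81.4 and 74.9 CPM in T. bernacchii. In both rows every C. hamatus library was below every other library. PRVA_CYPCA differed by -6.42 ± 1.16 from G. acuticeps on the log2 scale (edgeR adjusted p = 0.00183, and -5.22 without G. acuticeps replicate 1). From T. bernacchii it differed by -4.90 ± 1.09 (edgeR adjusted p = 0.00643, and -3.98 without T. bernacchii replicate 2). Both calls held with each library left out in turn, but not in every alternative fit. PRVB_SCOJP differed by -6.31 ± 1.62 from G. acuticeps (edgeR adjusted p = 0.0106; -4.02 without G. acuticeps replicate 1) and by -4.81 ± 1.52 from T. bernacchii (edgeR adjusted p = 0.0339). That last call was lost without C. hamatus replicate 1 or 2 or T. bernacchii replicate 2 or 3 (edgeR adjusted p = 0.0550 to 0.0961). It was also lost when PRVB_XENLA, a row counted in the icefish alone, was summed with it (-3.93 ± 1.45, edgeR adjusted p = 0.0616).

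The calcium store gave opposite directions for its release channel and its buffer. RYR1_MOUSE, the skeletal ryanodine receptor, held 37.1, 19.3 and 25.4 CPM in C. hamatus, 149, 148 and 150.5 CPM in G. acuticeps, and 101, 52.5 and 81.1 CPM in T. bernacchii. The 3 species did not overlap, and G. acuticeps libraries were nearly equal. RYR1_MOUSE was lower in the icefish than in G. acuticeps by a log2 difference of -2.45 ± 0.42 (edgeR adjusted p = 0.00132) and than in T. bernacchii by -1.52 ± 0.40 (edgeR adjusted p = 0.0156). Without T. bernacchii replicate 1 the difference from T. bernacchii was -1.31 and not called (edgeR adjusted p = 0.0666). CASQ1_RAT, the skeletal calsequestrin that binds calcium inside the sarcoplasmic reticulum, held 825, 205 and 873 CPM in C. hamatus, 0.311, 0 and 1.22 CPM in G. acuticeps, and 0 counts in all 3 T. bernacchii libraries. It was the member with the most icefish counts, 8562 of its 8575 over all 9 libraries. The row thus passed the filter on low counts through the C. hamatus libraries alone. It is among the members counted as higher in the icefish in both comparisons. CASQ1_RAT was higher in the icefish than in G. acuticeps by a log2 difference of 9.92 ± 1.13 (edgeR adjusted p = 0.000372) and at least 929-fold higher than in T. bernacchii (edgeR adjusted p = 0.000337). A second entry of the protein, CASQ1_HUMAN, had 0 counts in C. hamatus, 63 counts in G. acuticeps and 1 count in T. bernacchii, so the sum of both CASQ1 rows was still higher in C. hamatus, by 7.63 ± 1.05 against G. acuticeps (edgeR adjusted p = 0.000438) and by 12.97 ± 1.41 against T. bernacchii (edgeR adjusted p = 0.000223).

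Z disc rows, which tie thin filaments of adjacent sarcomeres together, were 3 of 5 lower in the icefish than in G. acuticeps and 2 of 5 lower and 1 higher than in T. bernacchii. These are 60% lower, against 16.8% of all tested rows, and then 40% lower and 20% higher, against 14.8% and 17.6%. TELT_BOVIN (telethonin, which caps titin at the Z disc) had 1 count over the 3 C. hamatus libraries, while it held 7.16, 3.77 and 16.2 CPM in G. acuticeps and 5.48, 31.0 and 17.2 CPM in T. bernacchii. In counts pooled over the libraries of a species, it was 142-fold lower in the icefish than in G. acuticeps (exact 95% counting interval 25.3 to 5650, edgeR adjusted p = 0.00332). Against T. bernacchii it was 207-fold lower (36.9 to 8210, edgeR adjusted p = 0.00233). A second row, TELT_HUMAN, had 8 counts in C. hamatus, and the TELT rows summed gave log2 differences of -3.92 ± 1.13 from G. acuticeps (edgeR adjusted p = 0.0187) and -4.68 ± 1.16 from T. bernacchii (edgeR adjusted p = 0.0114), against -6.36 and -7.33 for TELT_BOVIN alone. MYOZ1_BOVIN (myozenin of fast fibres, which binds alpha-actinin) had 2 counts in C. hamatus, against 13.7, 1.26 and 7.12 CPM in G. acuticeps and 4.99, 14.8 and 1.94 CPM in T. bernacchii. It was 43.0-fold lower in the icefish than in G. acuticeps (exact 95% counting interval 11.6 to 359; edgeR adjusted p = 0.0146) and 29.9-fold lower than in T. bernacchii (8.02 to 251; edgeR adjusted p = 0.0188). The first call was lost without G. acuticeps replicate 1 (edgeR adjusted p = 0.0515), the second without C. hamatus replicate 2 or 3 (edgeR adjusted p = 0.0559 and 0.0521). MYOZ2_PONAB, the slow and heart myozenin, held 7.42, 0.677 and 10.7 CPM in C. hamatus, 5.604, 2.26 and 2.54 CPM in G. acuticeps, and 2.24, 8.08 and 7.86 CPM in T. bernacchii, with overlapping ranges and no call.

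Of the alpha-actinins, the main cross-linkers of the Z disc, the fast form differed in level among all 3 species. ACTN3_BOVIN, the fast form, held 3.48, 14.6 and 3.57 CPM in C. hamatus, 90.3, 36.4 and 183 CPM in G. acuticeps, and 0.499, 1.01 and 0.873 CPM in T. bernacchii. The groups did not overlap, and the order of their levels was G. acuticeps, C. hamatus, T. bernacchii. ACTN3_BOVIN was lower in the icefish than in G. acuticeps by a log2 difference of -3.86 ± 0.78 (edgeR adjusted p = 0.00317; -4.88 without C. hamatus replicate 2 to -3.20 without G. acuticeps replicate 3). It was higher than in T. bernacchii by 3.12 ± 0.84 (edgeR adjusted p = 0.0162), or 2.12 and not called without C. hamatus replicate 2 (edgeR adjusted p = 0.0587), with the call also lost without T. bernacchii replicate 1 or 3 (edgeR adjusted p = 0.0578 and 0.0505). ACTN2_CHICK, the form of slow, fast and heart muscle, held 10.4, 45.4 and 6.35 CPM in C. hamatus, 1.87, 3.02 and 15.7 CPM in G. acuticeps, and 30.7, 219 and 50.4 CPM in T. bernacchii. C. hamatus overlapped both other species, with log2 differences of 1.54 ± 1.03 from G. acuticeps (edgeR adjusted p = 0.260) and -2.28 ± 1.05 from T. bernacchii (edgeR adjusted p = 0.122). Between G. acuticeps and T. bernacchii the ACTN3 and ACTN2 rows went opposite ways. How reads were shared between such related entries is not given, and its part in the ACTN3_BOVIN differences was not tested.

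Titin, the spring that spans the sarcomere from Z disc to midline, was lower in the icefish than in both other species. TITIN_MOUSE held 1.62, 2.03 and 0 CPM in C. hamatus, 475, 410 and 530.3 CPM in G. acuticeps, and 23.7, 97.6 and 37.9 CPM in T. bernacchii. The 3 groups did not overlap. The log2 difference of C. hamatus was -8.66 ± 1.05 from G. acuticeps (edgeR adjusted p = 0.000253; -9.21 without C. hamatus replicate 2 to -8.02 without C. hamatus replicate 3) and -5.50 ± 0.94 from T. bernacchii (edgeR adjusted p = 0.00188; -6.04 without C. hamatus replicate 2 to -4.75 without T. bernacchii replicate 2). DESM_PIG, desmin, the intermediate filament that links myofibrils and is made in smooth muscle too, held 0.464, 8.46 and 0.397 CPM in C. hamatus, 20.2, 38.9 and 183 CPM in G. acuticeps, and 9.22, 119.8 and 57.9 CPM in T. bernacchii. Every icefish library was lower than every other one, the nearest pair being C. hamatus replicate 2 and T. bernacchii replicate 1. DESM_PIG differed by -4.79 ± 1.40 from G. acuticeps (edgeR adjusted p = 0.0197; -3.36 and not called without G. acuticeps replicate 3, edgeR adjusted p = 0.0804) and by -4.40 ± 1.38 from T. bernacchii (edgeR adjusted p = 0.0328). The second call was lost without C. hamatus replicate 1 or 3 or T. bernacchii replicate 2 or 3 (edgeR adjusted p = 0.0572 to 0.0850). NEBU_HUMAN, nebulin of the thin filament, held 0, 2.37 and 2.78 CPM in C. hamatus, 0, 0 and 0.610 CPM in G. acuticeps, and 0, 0 and 6.11 CPM in T. bernacchii and passed no test.

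**Figure D3:**
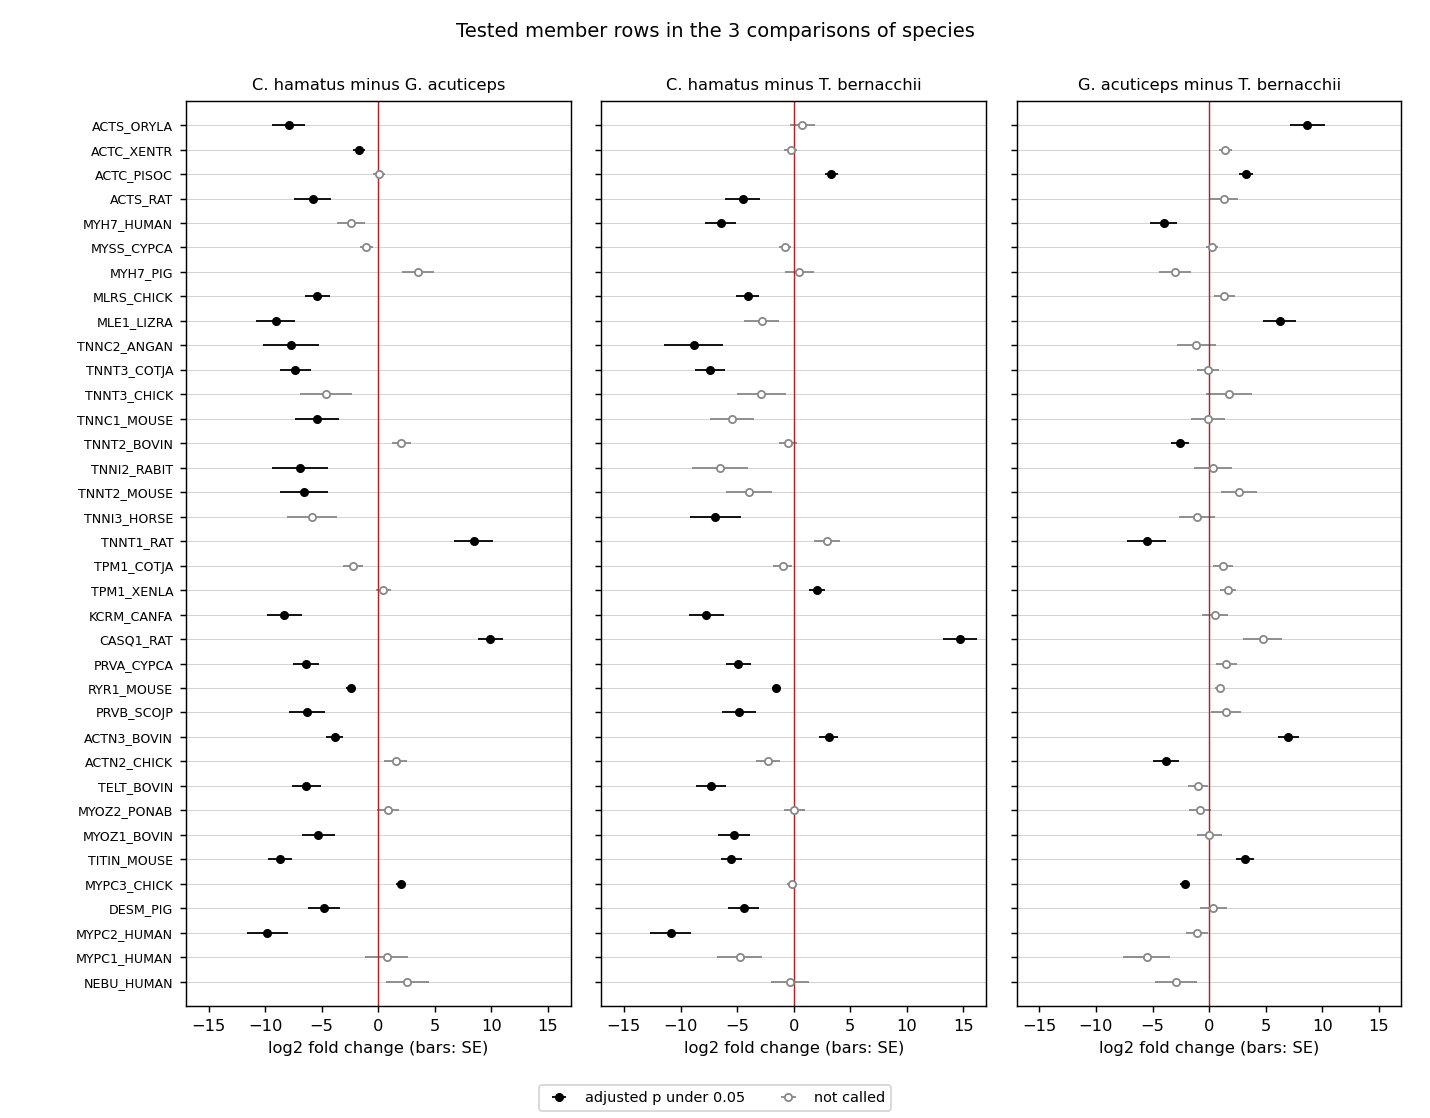
Log2 differences (horizontal axis) with standard errors of the tested member rows in C. hamatus minus G. acuticeps, C. hamatus minus T. bernacchii and G. acuticeps minus T. bernacchii, 1 panel each, with called rows (edgeR adjusted p under 0.05) drawn as filled points. In the panels with C. hamatus, 20 and 15 called rows lie left of 0 and 3 and 4 right of it, and in the third panel 5 lie on each side.

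Of the member rows, an actin row had the highest level in G. acuticeps. ACTS_ORYLA held 127, 192 and 11.5 CPM in C. hamatus, 19039, 30866 and 29894 CPM in G. acuticeps, and 18.5, 164.5 and 10.4 CPM in T. bernacchii. G. acuticeps stood far above both other species, whose ranges overlapped. It was lower in the icefish than in G. acuticeps by a log2 difference of -7.92 ± 1.46 (edgeR adjusted p = 0.00202; -8.59 without C. hamatus replicate 2 to -7.39 without C. hamatus replicate 3), and its difference from T. bernacchii was 0.78 ± 1.09 (edgeR adjusted p = 0.627). The cytoplasmic actin row ACTB_OREMO, which is no member, held 180.4, 1623 and 67.9 CPM in C. hamatus, 157, 567 and 380.4 CPM in G. acuticeps, and 20390, 24077 and 19506 CPM in T. bernacchii. Muscle and cytoplasmic actins are nearly identical proteins, and how reads were shared among such entries is not given in the sources used here. The 4 muscle actin rows and ACTB_OREMO together held 500, 1958 and 215 CPM in C. hamatus, 19382, 31752 and 30754 CPM in G. acuticeps, and 20503, 24321 and 19638 CPM in T. bernacchii. In that sum G. acuticeps and T. bernacchii overlapped, and both lay above C. hamatus in every library.

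The 3 smaller actin rows held far lower levels in G. acuticeps than ACTS_ORYLA did. ACTC_XENTR, the cardiac alpha-actin entry of a clawed frog, held 83.5, 29.4 and 72.3 CPM in C. hamatus, 139, 199.7 and 263 CPM in G. acuticeps, and 87.0, 28.6 and 107 CPM in T. bernacchii. Its log2 difference of -1.70 ± 0.57 between C. hamatus and G. acuticeps (edgeR adjusted p = 0.0354) lost its call without C. hamatus replicate 2 or 3 or G. acuticeps replicate 2 or 3 (edgeR adjusted p = 0.0543 to 0.115). It was also lost when the ACTC rows were summed (-0.89 ± 0.46, edgeR adjusted p = 0.142). ACTS_RAT held 0.464, 1.69 and 0 CPM in C. hamatus, 2.18, 32.9 and 76.6 CPM in G. acuticeps, and 2.74, 35.7 and 6.89 CPM in T. bernacchii. C. hamatus was below every other library, with log2 differences of -5.81 ± 1.60 from G. acuticeps (edgeR adjusted p = 0.0149; -4.71 and not called without G. acuticeps replicate 3, edgeR adjusted p = 0.0552) and -4.48 ± 1.54 from T. bernacchii (edgeR adjusted p = 0.0471). Of the 9 fits with 1 library left out, the call against T. bernacchii was kept only without G. acuticeps replicate 1 or T. bernacchii replicate 1, and -2.91 without T. bernacchii replicate 2 was its smallest value. Against T. bernacchii the sum of both ACTS rows had a log2 difference of 0.48 ± 1.06 (edgeR adjusted p = 0.767), of the other sign. ACTC_PISOC, the sea star entry, was higher in C. hamatus than in T. bernacchii by 3.33 ± 0.58 (edgeR adjusted p = 0.00211), with 109, 112 and 63.5 CPM in C. hamatus, 45.5, 85.9 and 141 CPM in G. acuticeps, and 5.48, 15.5 and 7.57 CPM in T. bernacchii. The ACTC rows summed gave 0.90 ± 0.46 in that comparison (edgeR adjusted p = 0.161).

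Of the rows of fast skeletal isoforms, 11 of 12 tested were lower and 0 higher in the icefish than in G. acuticeps, and 8 were lower and 1 (ACTN3_BOVIN) higher than in T. bernacchii. Of all tested rows, 16.8% were lower and 25.1% higher in the first comparison, and 14.8% and 17.6% in the second. Of the rows of slow skeletal or heart isoforms, 2 of 10 tested (TNNC1_MOUSE and TNNT2_MOUSE) were lower and 2 higher than in G. acuticeps, and 2 (MYH7_HUMAN and TNNI3_HORSE) were lower and 0 higher than in T. bernacchii. The slow or heart calls against G. acuticeps, and the lower ones against T. bernacchii, were near the shares of all tested rows. The other 14 tested members, titin, RYR1, desmin, telethonin, CASQ1_RAT and MYSS_CYPCA among them, were put in neither group, with 7 lower and 1 higher against G. acuticeps and 5 lower and 3 higher against T. bernacchii. The 14 rows of fast skeletal isoforms (light chains MLRS and MLE1, the fast troponins, MYPC2, ACTN3, MYOZ1, the parvalbumins and KCRM) summed to 25.3, 77.8 and 38.9 CPM in C. hamatus, 3047, 615 and 4732 CPM in G. acuticeps, and 481, 2584 and 890.0 CPM in T. bernacchii. The 17 rows of slow skeletal or heart isoforms summed to 297, 458 and 351 CPM in C. hamatus, 96.2, 92.2 and 313 CPM in G. acuticeps, and 389.9, 1077 and 348 CPM in T. bernacchii. The fast sum of every C. hamatus library lay below that of every other library, whereas the slow or heart sum of C. hamatus overlapped both other species. The separation of the fast sums holds for these 14 rows, which leave out the skeletal calsequestrin CASQ1_RAT and the fast heavy chain MYSS_CYPCA. CASQ1_RAT alone held 825 and 873 CPM in C. hamatus replicates 1 and 3, above the fast sum of 615 CPM in G. acuticeps replicate 2. With it the fast sums would overlap. MYPC3_CHICK supplied 249, 410 and 181 CPM of the C. hamatus slow or heart sum. This grouping was made after the values were seen and was not tested. Heart marker rows that are no members (9 rows, among them the natriuretic peptide rows ANF and ANFB, NKX25, GATA4 and RYR2) summed to 13.5 to 93.1 CPM in C. hamatus, 17.6 to 27.4 CPM in G. acuticeps and 18.9 to 26.3 CPM in T. bernacchii, with 7, 8 and 6 of 9 rows counted. NKX25_XENLA was counted in G. acuticeps alone (0.503 to 0.623 CPM) and GATA4_XENLA in 1 T. bernacchii library alone (1.01 CPM). ANF_OREMO had its highest library in G. acuticeps (7.32 CPM), and ANFB_OREMO and CSRP3_MOUSE had theirs in T. bernacchii (1.35 and 8.055 CPM). RYR2_HUMAN, TBX20_DANRE and TBX5_CHICK had their highest library in C. hamatus (20.65, 4.06 and 0.794 CPM). Of the C. hamatus sum HAND2_DANRE, a factor of heart and of sympathetic and chromaffin lineages, held 0.464, 82.2 and 21.8 CPM. The part of heart tissue in these values was not tested.

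**Figure D4:**
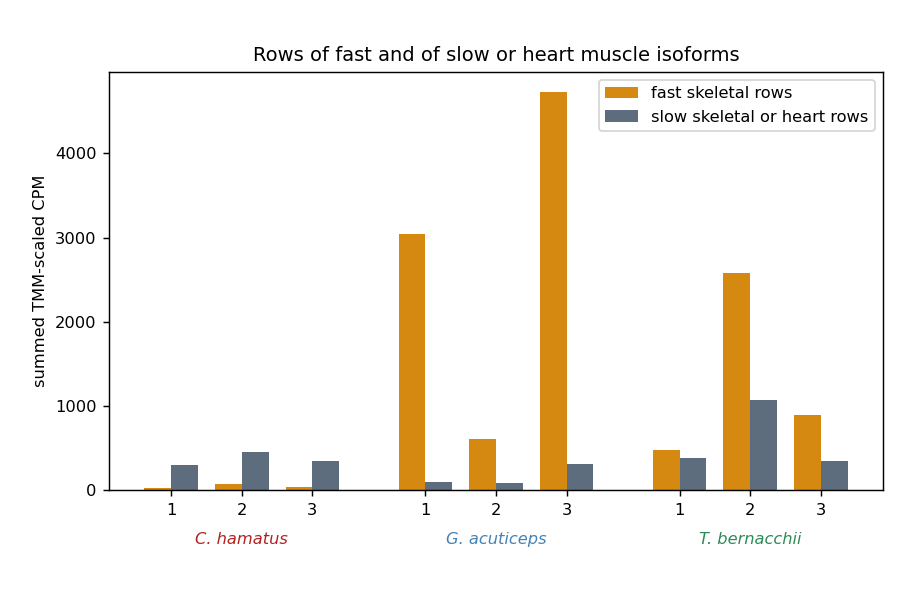
Summed TMM-scaled CPM (vertical axis) over the 14 rows of fast skeletal isoforms and the 17 rows of slow skeletal or heart isoforms in each of the libraries, ordered C. hamatus, G. acuticeps, T. bernacchii. The fast sum exceeds the slow or heart sum in all 6 libraries of G. acuticeps and T. bernacchii and is under 78 CPM in the 3 C. hamatus libraries, where the slow or heart sum is 297 to 458 CPM. CASQ1_RAT, which is high in C. hamatus, and MYSS_CYPCA are in neither sum.

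Within each species the muscle rows were high in the same library more often than other rows. G. acuticeps replicate 3 held the highest value of its species in 26 of the 35 tested members with a count there, against 39.0% of all tested rows. T. bernacchii replicate 2 held the highest in 29 of 35, against 41.9% of all tested rows. In the troponin sum the G. acuticeps libraries stood at 154, 55.0 and 962 CPM and the T. bernacchii libraries at 167, 886 and 297 CPM, while C. hamatus held 38.03, 36.6 and 43.3 CPM. Myosin light chain rows summed to 12.3, 59.9 and 10.3 CPM in C. hamatus, 779, 376 and 2839 CPM in G. acuticeps, and 96.5, 779 and 377 CPM in T. bernacchii. C. hamatus replicate 2 held the highest value of its species in 18 of 35 members, against 32.1% of all tested rows. What made libraries of 1 species differ in these rows was not tested.

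Between G. acuticeps and T. bernacchii most muscle rows did not pass the test, 26 of 36. The called shares, 13.9% each way, were near those of all tested rows, 13.1% higher and 18.3% lower. Besides ACTS_ORYLA (log2 difference 8.69 ± 1.51, edgeR adjusted p = 0.00176), 4 rows were higher in G. acuticeps. MLE1_LIZRA was higher by 6.23 ± 1.44 (edgeR adjusted p = 0.00825; 3.93 without G. acuticeps replicate 3), ACTN3_BOVIN by 6.98 ± 0.93 (edgeR adjusted p = 0.000380), TITIN_MOUSE by 3.16 ± 0.79 (edgeR adjusted p = 0.0122; 3.94 without T. bernacchii replicate 2) and ACTC_PISOC by 3.27 ± 0.58 (edgeR adjusted p = 0.00202). In all 5 the ranges of the species did not overlap. The MLE1_LIZRA call held with each library left out in turn, but not in every alternative fit. The 5 rows lower in G. acuticeps were MYPC3_CHICK, MYH7_HUMAN, ACTN2_CHICK, TNNT2_BOVIN and TNNT1_RAT. MYPC3_CHICK was lower by -2.17 ± 0.44 on the log2 scale (edgeR adjusted p = 0.00388) and kept its call with each library left out in turn. MYH7_HUMAN differed by -4.02 ± 1.18 (edgeR adjusted p = 0.0251) and ACTN2_CHICK by -3.82 ± 1.12 (edgeR adjusted p = 0.0250), and both calls were lost without G. acuticeps replicate 1 or 2 or T. bernacchii replicate 2 (edgeR adjusted p = 0.0825 to 0.104). TNNT2_BOVIN differed by -2.57 ± 0.82 (edgeR adjusted p = 0.0359; -1.40 without T. bernacchii replicate 2) with overlapping ranges, and the call was lost without that library, C. hamatus replicate 1 or G. acuticeps replicate 1 or 2 (edgeR adjusted p = 0.0544 to 0.172) and when the TNNT2 rows were summed (-0.63 ± 0.98, edgeR adjusted p = 0.660). TNNT1_RAT was at least 1.75-fold lower in G. acuticeps, where it had no count (edgeR adjusted p = 0.0406), and kept that call in 2 of the 9 fits with 1 library left out. Without G. acuticeps replicate 3, TNNC2_ANGAN and TNNT3_CHICK, which were then at 0 in G. acuticeps, also passed the test as lower there (edgeR adjusted p = 0.00136 and 0.0438).

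The 17 members that did not pass the filter had few counts or held most of them in few libraries. They include the atrial and ventricular light chains MYL4_RAT, MYL3_MOUSE and MLRV_MOUSE, the cardiac heavy chain MYH6_MOUSE, MLEC_DANRE, TNNT2_CHICK, TNNI1_RABIT, 3 tropomyosin rows, KCRS_CHICK, KCRM_HUMAN, CASQ1_HUMAN, CASQ2_CHICK, PRVB_XENLA, TELT_HUMAN and myoglobin (MYG_GOBGI). TPM3_HUMAN, a slow tropomyosin that many other cells also make, was the largest of them with 0 counts in C. hamatus, 189 counts in G. acuticeps and 548 counts in T. bernacchii, of which 185 were in G. acuticeps replicate 3 and 543 in T. bernacchii replicate 3. MYG_GOBGI, the oxygen store of muscle, had 1 count in C. hamatus, 40 counts in G. acuticeps and 21 counts in T. bernacchii. Of all 53 members, 8 were at 0 in all 3 C. hamatus libraries, 4 in G. acuticeps and 3 in T. bernacchii, or 15.1%, 7.55% and 5.66%, against 12.5%, 19.3% and 15.0% of all rows of the table. A count of 0 allows up to 3 counts, which is 0.596 to 1.02 CPM in the C. hamatus libraries, 0.305 to 0.934 CPM in G. acuticeps and 0.291 to 1.01 CPM in T. bernacchii. PRVB_XENLA was the reverse case, with 22 counts in C. hamatus and 0 in both other species.

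Muscle genes outside the members were read from lists. Of 9 tested rows of excitation and calcium handling, 2 were higher and 1 lower in the icefish than in G. acuticeps (22.2% and 11.1%, against 25.1% and 16.8% of all tested rows), and 4 higher and 2 lower than in T. bernacchii (44.4% and 22.2%, against 17.6% and 14.8%). AT2A1_MAKNI, the SERCA pump of fast fibres (an entry of a marlin), held 1.16, 6.43 and 1.59 CPM in C. hamatus, 397, 57.5 and 280.1 CPM in G. acuticeps, and 64.1, 267 and 104 CPM in T. bernacchii. C. hamatus lay below all other libraries, with log2 differences of -6.37 ± 1.03 from G. acuticeps (edgeR adjusted p = 0.00104; -7.46 without C. hamatus replicate 2 to -5.87 without G. acuticeps replicate 1) and -5.61 ± 0.997 from T. bernacchii (edgeR adjusted p = 0.00223; -6.69 without C. hamatus replicate 2 to -4.86 without T. bernacchii replicate 2). AT2A2_RAT, the pump of slow and heart muscle and of many other cells, held 75.6, 122.5 and 98.9 CPM in C. hamatus, 3.74, 2.51 and 2.14 CPM in G. acuticeps, and 9.72, 37.4 and 9.22 CPM in T. bernacchii. It was higher in the icefish than in G. acuticeps by 5.16 ± 0.70 (edgeR adjusted p = 0.000392) and than in T. bernacchii by 2.41 ± 0.61 (edgeR adjusted p = 0.0119), or 3.36 without T. bernacchii replicate 2. A second row of that pump, AT2A2_CHICK, was lower in C. hamatus than in T. bernacchii (-2.90 ± 0.65, edgeR adjusted p = 0.00687), with 2.55, 7.45 and 1.99 CPM in C. hamatus, 9.96, 11.6 and 9.16 CPM in G. acuticeps, and 32.2, 20.5 and 35.5 CPM in T. bernacchii. JPH2_RABIT, junctophilin of the junction between the surface membrane and the store, held 118, 80.5 and 155 CPM in C. hamatus, 17.7, 5.78 and 17.3 CPM in G. acuticeps, and 0, 0.673 and 0 CPM in T. bernacchii. It was higher in the icefish than in G. acuticeps by a log2 difference of 3.11 ± 0.75 (edgeR adjusted p = 0.00766). AT2A2_RAT and AT2A2_CHICK were chosen for mention after their values were seen.

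Of 16 tested rows of enzymes that feed muscle work, 5 were higher and 3 lower in the icefish than in G. acuticeps (31.2% and 18.8%, against 25.1% and 16.8% of all tested rows), and 4 higher and 4 lower than in T. bernacchii (25% each way, against 17.6% and 14.8%). G3P_DANRE, a glycolytic dehydrogenase of all tissues, held 27.8, 35.5 and 17.9 CPM in C. hamatus, 396, 734 and 1840 CPM in G. acuticeps, and 42.4, 617 and 124 CPM in T. bernacchii, below the others in every icefish library. Its log2 differences were -5.19 ± 1.03 from G. acuticeps (edgeR adjusted p = 0.00292) and -3.27 ± 0.95 from T. bernacchii (edgeR adjusted p = 0.0231), the second -1.64 without T. bernacchii replicate 2 and lost without that library or any 1 C. hamatus library (edgeR adjusted p = 0.0509 to 0.0923). KPYM_RAT, a pyruvate kinase of many tissues, held 16.5, 101 and 11.9 CPM in C. hamatus, 1.56, 1.26 and 2.24 CPM in G. acuticeps, and 1338, 602 and 1363 CPM in T. bernacchii, so that in this row C. hamatus lay between the other species. It was higher in the icefish than in G. acuticeps by 4.62 ± 0.89 (edgeR adjusted p = 0.00246) and lower than in T. bernacchii by -4.68 ± 0.86 (edgeR adjusted p = 0.00249), or by 3.01 and -6.28 without C. hamatus replicate 2. A second KPYM row, KPYM_HUMAN, held 0, 5.42 and 635 CPM in C. hamatus, 0 CPM in all G. acuticeps libraries, and 0, 0 and 3.69 CPM in T. bernacchii. Its value in C. hamatus replicate 3 lay above KPYM_RAT in T. bernacchii replicate 2. Over both rows, C. hamatus therefore overlapped T. bernacchii. Muscle forms in this list went both ways. PYGM_MOUSE, muscle glycogen phosphorylase, held 144, 589.5 and 313 CPM in C. hamatus, above every other library (30.0 to 82.8 CPM). A second row, PYGM_HUMAN, overlapped in all species. K6PF_BOVIN, muscle phosphofructokinase, held 0, 2.03 and 0.397 CPM in C. hamatus, below every other library (2.99 to 149.5 CPM).

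Other sarcomere rows gave 3 higher and 4 lower of 22 tested in C. hamatus, against both G. acuticeps and T. bernacchii. These are 13.6% and 18.2%, against 25.1% and 16.8% of all tested rows in the first comparison and 17.6% and 14.8% in the second. TMOD4_MOUSE, a tropomodulin that caps thin filaments, held 40.4, 43.7 and 160.4 CPM in C. hamatus, 998, 977 and 1121 CPM in G. acuticeps, and 105, 122.5 and 114 CPM in T. bernacchii. It was lower in the icefish than in G. acuticeps by a log2 difference of -3.66 ± 0.59 (edgeR adjusted p = 0.000990), and overlapped with T. bernacchii (edgeR adjusted p = 0.528). CAZA1_CHICK, a capping protein of every cell, held 96.7, 102.5 and 106 CPM in C. hamatus, 77.5, 79.1 and 83.3 CPM in G. acuticeps, and 1.99, 33.3 and 26.6 CPM in T. bernacchii. Its log2 difference between C. hamatus and T. bernacchii was 2.30 ± 0.74 (edgeR adjusted p = 0.0353). That call was lost without C. hamatus replicate 2 or 3, G. acuticeps replicate 1 or T. bernacchii replicate 3 (edgeR adjusted p = 0.0541 to 0.0625). A second CAZA1 row, CAZA1_HUMAN, held 125.5, 96.8 and 88.6 CPM in C. hamatus and 0 CPM in every library of the other species. CAZA1_CHICK therefore covers only part of the CAZA1 counts. Among muscle transcription factors and regulators, 3 of 6 tested rows were higher and 0 lower in the icefish than in G. acuticeps (50% higher, against 25.1% of all tested rows), and 2 were higher and 0 lower than in T. bernacchii (33.3%, against 17.6%). MEF2A_BOVIN, a factor also used in blood and nerve cells, held 22.96, 34.2 and 199 CPM in C. hamatus, 0.623, 0.251 and 0.407 CPM in G. acuticeps, and 34.7, 37.0 and 24.1 CPM in T. bernacchii (log2 difference of C. hamatus from G. acuticeps 7.60 ± 1.02, edgeR adjusted p = 0.000389). MEF2C_PONAB held 21.1, 19.97 and 9.13 CPM in C. hamatus, 33.6, 38.9 and 39.2 CPM in G. acuticeps, and 7.23, 9.09 and 5.05 CPM in T. bernacchii and was called between G. acuticeps and T. bernacchii only (2.39 ± 0.52, edgeR adjusted p = 0.00618). A second MEF2C row, MEF2C_PIG, had another order, with every C. hamatus library above all others. It held 49.6, 21.7 and 65.5 CPM in C. hamatus, 0.311, 1.005 and 0.2035 CPM in G. acuticeps, and 0.748, 12.45 and 1.65 CPM in T. bernacchii. Its call against T. bernacchii was lost without replicate 1 or 3 of C. hamatus or of T. bernacchii (edgeR adjusted p = 0.0535 to 0.0795). The myogenic factors proper were at the edge of detection, at 0 to 0.794 CPM for MYOG_HUMAN and 0 to 2.04 CPM for MYF6_TAKRU over the 9 libraries.

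Rows of smooth muscle and of non-muscle contractile proteins were called in both directions. The 11 smooth muscle rows summed to 2199 to 3886 CPM in C. hamatus, 987 to 1401 CPM in G. acuticeps and 1947 to 3018 CPM in T. bernacchii, with 10, 10 and 11 rows counted. Of the 9 tested, 3 were higher and 3 lower in the icefish than in G. acuticeps (33.3% each way, against 25.1% and 16.8% of all tested rows), and 0 higher and 1 lower than in T. bernacchii (0% and 11.1%, against 17.6% and 14.8%). The 1 tested row of non-muscle actin, ACTB_OREMO (values given above), was lower in C. hamatus than in T. bernacchii by a log2 difference of -5.10 ± 1.15 (edgeR adjusted p = 0.00706), and its difference from G. acuticeps was 0.76 ± 0.97 (edgeR adjusted p = 0.563). CALD1_RAT, caldesmon, held 1108, 411 and 531 CPM in C. hamatus, 9.96, 5.78 and 5.70 CPM in G. acuticeps, and 967, 596 and 1054 CPM in T. bernacchii, and TAGL_BOVIN, transgelin, held 1160, 886 and 448 CPM in C. hamatus, 206, 278 and 232 CPM in G. acuticeps, and 413, 885 and 548 CPM in T. bernacchii. Both were higher in the icefish than in G. acuticeps, by 6.59 ± 0.62 (edgeR adjusted p = 8.81e-05) and 1.80 ± 0.48 (edgeR adjusted p = 0.0120; 0.0521 without G. acuticeps replicate 1), and overlapped with T. bernacchii. Of 6 tested non-muscle myosin rows 1 was higher and 1 lower in the icefish than in G. acuticeps (16.7% each way, against 25.1% and 16.8% of all tested rows), and 1 higher and 0 lower than in T. bernacchii (16.7% and 0%, against 17.6% and 14.8%). MYL6_CHICK, a light chain of smooth and non-muscle myosin, was the lower one, with 2.09, 33.5 and 21.1 CPM in C. hamatus, 633, 511 and 512 CPM in G. acuticeps, and 15.2, 6.73 and 8.83 CPM in T. bernacchii (log2 difference of C. hamatus from G. acuticeps -4.88 ± 0.84, edgeR adjusted p = 0.00147). A second MYL6 row, MYL6_RAT, held 876, 982 and 789.5 CPM in C. hamatus, 413, 755 and 894 CPM in G. acuticeps, and 776, 856 and 772 CPM in T. bernacchii. Its C. hamatus and G. acuticeps ranges overlapped, so the MYL6_CHICK difference covers only part of the MYL6 counts. MYH9_HUMAN, the heavy chain of non-muscle myosin, was the one higher than in T. bernacchii, with 381, 612 and 90.5 CPM in C. hamatus, 181, 416 and 359 CPM in G. acuticeps, and 3.24, 97.6 and 13.5 CPM in T. bernacchii (3.25 ± 1.10, edgeR adjusted p = 0.0443). The call passed only without C. hamatus replicate 3 or T. bernacchii replicate 2 among the 9 fits with 1 library left out. A second MYH9 row, MYH9_MOUSE, held 42.7, 114.7 and 85.0 CPM in C. hamatus and 13.2, 190.5 and 34.55 CPM in T. bernacchii. Those ranges overlapped, so the MYH9_HUMAN difference covers only part of the MYH9 counts.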

How the data were processed

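RNA was extracted with Trizol from frozen head kidney and made into TruSeq libraries, per the labels' protocols. The authors deposited 1 table of whole read counts per UniProt entry for 9 libraries. Not given in the sources used here are the aligner, counter, strand setting and rule for near-identical entries, so rows of 1 gene family, and overlapping genes, may share reads. No sequence was printed.

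Rows were filtered with filterByExpr (edgeR 4.0.16, R 4.3.3), scaled by TMM, and tested in 1 fit over all 9 libraries with glmQLFit and glmQLFTest, with species as the only factor. P-values were adjusted by Benjamini-Hochberg over 8662 rows and called under 0.05. SE was the log2 difference over the root of the F statistic. Alternatives were DESeq2 1.42.0, other scalings and filters, rows summed by protein abbreviation, a replicate block, and libraries left out. The fit was tested on simulated counts. Counts of 0 were bounded by 3 counts per library. Folds given with an exact interval were ratios of counts pooled over the 3 libraries of each species, scaled by their pooled library sizes. Libraries with more counts weigh more in them, so they differ from ratios of mean CPM. Intervals and bounds cover counting error only, and library totals (2501922 to 12055675 counts) set the precision.

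All members were counted. Named were up to 4 rows per protein class with the most counts, up to 2 called against their class, and up to 2 called rows of most counts per list; other rows were named after their values were seen. The members and lists were chosen with earlier results of these data known.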

Additional observations from a re-analysis of the deposited data

How the results depend on the processing

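Counts of called members (higher and lower of 36) were 3 and 20 for C. hamatus against G. acuticeps, 4 and 15 for C. hamatus against T. bernacchii, and 5 and 5 for G. acuticeps against T. bernacchii. Leaving out each library in turn, with the filter applied anew so that 37 to 40 members were tested, gave 3 to 5 and 13 to 24, 2 to 5 and 11 to 17, and 5 to 7 and 1 to 6. Among the same 36 members the lower calls were 13 to 21, 10 to 17 and 1 to 6, the single row being left without G. acuticeps replicate 1 or 2 or T. bernacchii replicate 2. Against G. acuticeps, 1 was higher when only rows counted in every species were tested and 5 without G. acuticeps replicate 3 and T. bernacchii replicate 2, and 11 were lower without C. hamatus replicates 2 and 3, both choices made after seeing the data. Against T. bernacchii, 2 were higher with rows summed by abbreviation and 2 without C. hamatus replicates 2 and 3, when 6 were lower. DESeq2 called 8 higher in G. acuticeps than in T. bernacchii. The other scalings, filters and tests left each count within 1.5 times. Shares of all tested rows under these alternatives are not given here. The share of counts on members moved to 0.149% in C. hamatus and 0.398% in G. acuticeps without the ACTS and ACTC rows, and to 0.506% in G. acuticeps without the 20 highest rows, which include ACTS_ORYLA. Over the named rows, 1653 values under an alternative kept direction and call, 95 lost the call, 40 gained it and 4 reversed. ACTS_RAT turned to 0.48 against T. bernacchii when summed with ACTS_ORYLA. TNNC2_ANGAN ranged over -9.06 to 3.74 against G. acuticeps with 1 library left out, turning to 3.74 without G. acuticeps replicate 3, and to 3.8 without that library and T. bernacchii replicate 2, when G. acuticeps had no count of it. TNNT3_CHICK ranged over -9.91 to 2.52 between G. acuticeps and T. bernacchii, turning to -9.91 without G. acuticeps replicate 3.

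The replicate numbers did not pair the libraries: deviations from the species means of same-numbered libraries correlated at -0.201 to 0.245, and not every library correlated best with its own number. With a replicate block the counts were 3 and 19, 4 and 15, and 7 and 4. The shallowest library allows 1.02 CPM at a count of 0, which limits the rows that are rare in C. hamatus, and 3 libraries per species leave calls that depend on 1 library.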
